A study of Mus musculus with 2 samples.

Results

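A group of 6 genes of extracellular nucleotide breakdown, nucleoside uptake and purine catabolism was examined, out of 31053 gene symbols counted in the small intestine of the mouse: Nt5e, Enpp3, Slc28a2, Ada, Pnp and Xdh. They were chosen by their measured UMI counts: in earlier results of the same files Nt5e and its partners marked enterocytes that came mostly from the FMTg animal. The difference between the animals therefore chose them, and it is given below as a description without a test. The tissue came from 1 Tg mouse of genotype Mdm2+/- Cag-CreERTg and 1 FMTg mouse of genotype Mdm2FM/- Cag-CreERTg, both C57BL/6j and 60 days old. Both carried a minus allele of Mdm2 and the Cag-CreER transgene, whose promoter is broadly active, so the recombinase is not restricted to the epithelium. Tamoxifen had been injected 1 time in both, at 6 mg per 40 g, 24 hours before the tissue was taken, and the labels describe the FMTg intestine as losing Mdm2 with acute activation of p53. Fresh tissue was dissociated and profiled by the 10x Genomics Chromium 3′ method, in which each captured transcript is read from its 3′ end and counted once by its unique molecular identifier (UMI). With 1 library per group no difference between the animals has a replicate check. All intervals are at 95% and cover counting error only.

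Nucleotides outside the cell and in digested food are taken apart at the brush border. Enpp3 is an ectoenzyme that cleaves nucleoside triphosphates and dinucleotides to monophosphates, and Nt5e (CD73) removes the last phosphate from AMP to give adenosine. Slc28a2 (CNT2) is a sodium-coupled transporter that concentrates purine nucleosides in the enterocyte, Ada deaminates adenosine to inosine, Pnp splits inosine and guanosine into base and sugar phosphate, and Xdh oxidises hypoxanthine and xanthine to uric acid. Enterocytes are born in crypts and move up the villus until they are shed at its tip, and their gene expression alters along the way.

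By the mm10 annotation all 6 are protein-coding genes. Nt5e lies at chr9:88327197-88372092 on the plus strand, Enpp3 at chr10:24772406-24842823 on the minus strand, Slc28a2 at chr2:122426477-122461137 on the plus strand and Ada at chr2:163726584-163750239 on the minus strand. Pnp lies at chr14:50931082-50965237 on the plus strand, and Xdh at chr17:73883895-73950196 on the minus strand. The promoters of Ada and Slc28a2 are shown because, over the cell classes of both libraries, Ada was the gene whose expression was most like that of Slc28a2. Each sequence is the 250 bases before the RefSeq start in GRCm38.p6, read 5′ to 3′ on the strand of the gene, at chr2:163750240-163750489 on the minus strand for Ada and chr2:122426185-122426434 on the plus strand for Slc28a2, and no annotated exon overlaps either. Capitals mark matches to the searched motifs.
Ada: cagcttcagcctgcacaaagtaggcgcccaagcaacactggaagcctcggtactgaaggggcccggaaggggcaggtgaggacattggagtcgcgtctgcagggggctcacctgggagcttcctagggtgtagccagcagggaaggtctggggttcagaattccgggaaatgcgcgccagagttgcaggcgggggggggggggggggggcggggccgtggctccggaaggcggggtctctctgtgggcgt
Slc28a2: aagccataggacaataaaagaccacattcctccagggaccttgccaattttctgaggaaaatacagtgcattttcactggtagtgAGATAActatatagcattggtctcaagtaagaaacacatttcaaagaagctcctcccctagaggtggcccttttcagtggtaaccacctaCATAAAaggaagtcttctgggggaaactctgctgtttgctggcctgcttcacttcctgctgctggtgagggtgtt
The Ada window had a GC content of 67.2% and 14 CpG dinucleotides, against 45.2% and 0 in the Slc28a2 window. Over 27018 RefSeq promoter windows of the same length the medians were 52.0% and 6. The motifs searched on both strands were CAAAGTCCA for HNF4, found in 0.381% of all windows, and the core CAAAGTC within it, found in 3.8%. AGATAA for GATA was found in 10.3% and TTTATG for CDX in 11.1%. ACGTG for HIF was found in 16.6%, TGANTCA for AP-1 in 6.87%, TGACGTCA for CRE in 1.62% and the p53 half-site in 7.18%. The Slc28a2 window held the GATA letters at 165 to 160 bases before the start and the CDX letters, on the opposite strand, at 75 to 70 bases before it. The Ada window held none of these letters.

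The Tg library had 6270 barcodes with 54013005 UMIs and the FMTg library 6382 barcodes with 49805718 UMIs, and 14 barcode sequences occurred in both, 4 of them among the cells kept. Barcodes above 25% mitochondrial UMIs, 47.0% of the Tg and 52.5% of the FMTg library, were left out, and 2913 and 2675 cells were kept at median depths of 4938 and 4710 UMIs. Mdm2, the targeted gene, had 93.0 UMIs per 1000000 UMIs of those cells (CPM) over all kept Tg cells and 142 CPM over all kept FMTg cells, and in enterocyte-like cells 106 and 204 CPM. The 3′ tags need not lie in the deleted part of the gene, so this does not check the genotype.

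Enterocyte-like cells were 4 clusters with 402 Tg and 441 FMTg cells, in which all 12 enterocyte markers were detected in both libraries. Their T or NK markers summed to 367 CPM in Tg and 248 CPM in FMTg, with none of 10 at 0, and their B markers to 10.7 and 19.5 CPM. The clusters were built without the 6 genes and without any other gene of the purine and nucleotide lists. Different clusters held most of the class in the 2 libraries. Cluster 3, led by Clca4a, 2010109I03Rik and Slc23a4 and then by Ada, Slc28a2 and Enpp3, held 56.5% of the FMTg and 5.47% of the Tg enterocyte-like cells. Cluster 4 (led by Slc5a12 and Mbl2) held 21.5% and 42.5%, cluster 8 (Car4 and Tstd1) 15.4% and 30.6%, and cluster 13 (S100g and Reg1) 6.58% and 21.4%. In cluster 3 the 9 upper villus genes, such as Apoa4, Klf4 and Krt20, summed to 83479 CPM in Tg and 76696 CPM in FMTg, and the 10 lower villus genes to 18072 and 24219 CPM. In cluster 8 the same sums were 17644 and 13686 CPM for the upper list and 150014 and 117881 CPM for the lower list. The name villus tip thus stands here for cells high in upper villus genes, since no position in the tissue was measured. A score of upper minus lower villus genes, computed without the 6 genes on 385 Tg and 415 FMTg cells thinned to 5000 UMIs, ordered the cells, which were divided into a lower, a middle and an upper range of equal cell number over both libraries together. The upper range held 11.4% of the Tg cells (44) and 53.7% of the FMTg cells (223), and the lower range 49.4% (190) and 18.6% (77). Of 800 scored cells, 48 lay within 0.1 of the score that divides the lower from the middle range and 45 within 0.1 of the upper division.

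Nt5e, the ectoenzyme that makes adenosine, had 83 UMIs in Tg enterocyte-like cells (6.08 CPM, interval 4.84 to 7.54) and 2137 in FMTg (205 CPM, 197 to 214), a log2 ratio of 5.08 (4.76 to 5.41). Of the 6 genes, Nt5e, Ada, Slc28a2 and Enpp3 were at least 1.5-fold higher in FMTg over the class and none was lower, where 16.1% of 10473 genes were higher and 11.6% lower. The genes were chosen for this contrast, so nothing is read from their count. Over all kept cells, which mix every class, the same 4 were higher and 0 lower, beside 12.1% and 9.75% of 14110 genes, with log2 ratios from 1.13 (Enpp3) to 2.02 (Slc28a2). In such sums a different share of cells and a different level per cell cannot be told apart. Inside cluster 3 Nt5e stood at 131 CPM in Tg and 410.0 CPM in FMTg, a log2 ratio of 1.64 (1.22 to 2.10). The Tg value rests on 46 UMIs in 9 of 22 cells, of which 29 came from 1 cell, and the FMTg value on 2093 UMIs in 131 of 249 cells. Without the cell of each library with the most Nt5e, 49.6 CPM in Tg (28.9 to 79.4) and 394 CPM in FMTg were left, a log2 ratio of 2.99 (2.30 to 3.77). Cluster 3 held 1 of the 6 genes at least 1.5-fold higher in FMTg, Nt5e, and none lower, against 23.2% and 13.4% of 7969 genes.

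Along the maturation score the Nt5e level was highest in the upper range of both libraries, but 29 of the 40 Tg UMIs there came from 1 cell. In Tg it measured 2.05, 5.46 and 33.1 CPM from the lower to the upper range, from 16, 25 and 40 UMIs. In FMTg it measured 10.8, 20.4 and 417 CPM, from 27, 62 and 1990 UMIs. The upper over lower ratio was 4.01 (3.15 to 4.95) on the log2 scale in Tg and 5.28 (4.73 to 5.88) in FMTg. Without the upper-range cell that held the most, chosen after seeing the data, Tg kept 11 UMIs there (9.16 CPM, 4.57 to 16.4), whose interval overlaps that of the middle range (3.54 to 8.07), and FMTg kept 1895 UMIs (399 CPM). The upper over lower ratios were then 2.16 (0.91 to 3.36) and 5.21 (4.67 to 5.82). In each range FMTg stood above Tg, with log2 ratios of 2.39 (1.45 to 3.38), 1.90 (1.21 to 2.63) and 3.65 (3.20 to 4.14). The cells of a range were not matched between the animals: in the upper range cluster 3 made up 12 of 44 Tg and 194 of 223 FMTg cells, and the median score was 1.96 in Tg and 2.40 in FMTg. With each range given the same weight in both libraries the log2 ratio over the class was 3.46 for Nt5e, 1.53 for Slc28a2, 1.13 for Ada and 0.04 for Enpp3. In the upper range Nt5e was found in 7 of 44 Tg cells and 113 of 223 FMTg cells.

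Enpp3, which trims nucleotides ahead of Nt5e, had 3533 UMIs in Tg enterocyte-like cells (259 CPM) and 7122 in FMTg (684 CPM), a log2 ratio of 1.40 (1.34 to 1.46). Between cells of the middle and upper ranges the difference was much smaller. In the upper range it measured 1169.7 CPM in Tg and 1194 CPM in FMTg (log2 ratio 0.03, -0.05 to 0.11), and in the middle range 374 and 428 CPM. In the lower range it was lower in FMTg, at 48.6 CPM in Tg and 14.3 CPM in FMTg, a log2 ratio of -1.76 (-2.30 to -1.27). Inside cluster 3 it was also lower in FMTg, by a log2 ratio of -0.43 (-0.56 to -0.30). The upper over lower ratio was 4.59 on the log2 scale in Tg and 6.38 in FMTg.

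**Figure D1:**
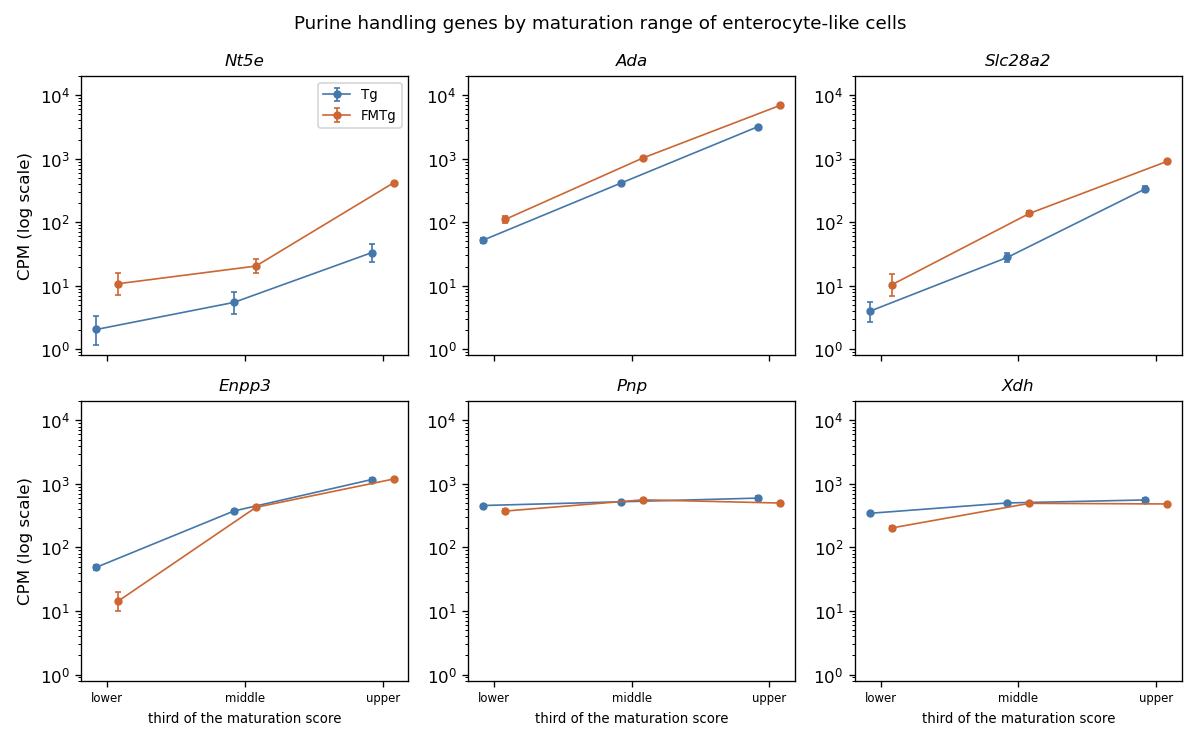
CPM on a log axis of the 6 genes in the lower, middle and upper range of the maturation score, for Tg (blue) and FMTg (orange), with 95% counting intervals as bars. Nt5e, Ada and Slc28a2 stand higher in FMTg in all 3 ranges, Enpp3 is close in the upper range, at 1169.7 CPM in Tg and 1194 CPM in FMTg, and Pnp and Xdh stay between 203 and 598 CPM. In the lower range 12 of 27 Nt5e, 107 of 277 Ada and 14 of 26 Slc28a2 FMTg UMIs came from 1 cell each.

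Slc28a2, the purine nucleoside transporter, had 602 UMIs in Tg enterocyte-like cells (44.1 CPM) and 4873 in FMTg (468 CPM), a log2 ratio of 3.41 (3.28 to 3.53). Along the score it measured 3.97, 28.0 and 333 CPM from the lower to the upper range in Tg, and 10.4, 137 and 907 CPM in FMTg. The upper over lower ratios were 6.39 (5.86 to 6.97) and 6.45 (5.90 to 7.07) on the log2 scale, with intervals that overlap those of Ada in both libraries and that of Enpp3 in FMTg. Within the ranges FMTg stood above Tg by 1.38 (0.57 to 2.18), 2.30 (2.01 to 2.59) and 1.44 (1.30 to 1.60) on the log2 scale. The lower-range ratio rests on 31 Tg and 26 FMTg UMIs, and 14 of the latter came from 1 cell. Without the cell of each library with the most Slc28a2 there, 28 and 12 UMIs were left, a log2 ratio of 0.43 (-0.68 to 1.45). Inside cluster 3 the order was the other way, with 1033 CPM in Tg (929 to 1145) and 896 CPM in FMTg (870 to 922). Of the Tg UMIs there, 59.4% came from 5 of 22 cells. Without the cell of each library with the most Slc28a2, 929 CPM in Tg and 879 CPM in FMTg were left, a log2 ratio of -0.08 (-0.25 to 0.09). A neighbouring gene listed as Gm14085 (Slc28a2b in RefSeq) at chr2:122484941-122528040 shares an identical run of 200 bases with Slc28a2 in the last 500 bases of the transcripts. No source used here states how reads from such a run were counted, so the Slc28a2 values are uncertain to that extent. Gm14085 itself had 0 UMIs in Tg and 11 in FMTg enterocyte-like cells.

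Ada, the deaminase that follows uptake, had 6313 UMIs in Tg enterocyte-like cells (463 CPM) and 37140 in FMTg (3567 CPM), a log2 ratio of 2.95 (2.91 to 2.99). From the lower to the upper range it measured 52.1, 411 and 3205 CPM in Tg and 110.4, 1022 and 6919 CPM in FMTg. The upper over lower log2 ratios were 5.94 (5.80 to 6.09) and 5.97 (5.80 to 6.15). Within the ranges FMTg stood above Tg by 1.08, 1.31 and 1.11 on the log2 scale. In the lower range 107 of the 277 FMTg UMIs came from 1 cell, and both FMTg values that use this range depend on it. Without the cell of each library with the most Ada, 46.9 CPM in Tg (42.2 to 52.0) and 68.6 CPM in FMTg (58.7 to 79.7) were left there. Inside cluster 3 Ada measured 8457 CPM in Tg and 6739 CPM in FMTg, a log2 ratio of -0.33 (-0.38 to -0.27), and inside cluster 4 it measured 452 and 397 CPM. Of the clusters, 13 and 5 had the widest Ada differences between the animals. In cluster 13 Ada measured 232 CPM in Tg and 2337 CPM in FMTg, and 77.9% of the FMTg UMIs there came from 5 of 29 cells. Cluster 5, a shallow cluster with a median of 1450 UMIs that was led by Ada and left unnamed, had 13442 CPM in Tg (174 cells) and 1295 CPM in FMTg (69 cells).

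Pnp and Xdh, the late steps from nucleoside to uric acid, differed little between the libraries over the class. Pnp measured 491 CPM in Tg and 486 CPM in FMTg, a log2 ratio of -0.01 (-0.07 to 0.04), and Xdh 417 and 419.6 CPM, a log2 ratio of 0.01 (-0.05 to 0.07). Their gradients along the score were shallow. Pnp was 0.39 (Tg) and 0.42 (FMTg) higher on the log2 scale in the upper than in the lower range, and Xdh 0.70 and 1.25 higher. All but Pnp, 5 of the 6 genes, were at least 1.5-fold higher in the upper than in the lower range in Tg, and the same number in FMTg, against 23.3% and 31.5% of genes. The genes were chosen for marking enterocytes mostly of FMTg, and the upper range held 223 FMTg and 44 Tg cells. The choice thus bears on this gradient, and nothing is read from the count. Xdh was lower in FMTg in the lower range, at 345 CPM in Tg and 203 CPM in FMTg (log2 ratio -0.76, -0.90 to -0.63), and in cluster 8 it measured 316 and 182 CPM. Pnp2 at chr14:50955992-50964749 lies within the span of Pnp on the same strand, shares 0 exon bases with it, and has a longest identical run of 48 bases with it in the last 500 bases. Pnp2 measured 430.6 and 417 CPM in enterocyte-like cells, and the 2 genes cannot be fully told apart where reads fall in shared runs.

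The number of the 6 genes at least 1.5-fold higher in FMTg was 3 in the upper range (Nt5e, Ada and Slc28a2, beside 17.5% of 8127 genes), 3 in the middle range (beside 11% of 8716) and 3 in the lower range (beside 13.9% of 9182). Lower in FMTg were 0, 0 and 2 (Enpp3 and Xdh), beside 13.3%, 10.4% and 11.3%. The lower-range count depended on single cells. Without the cell of each library with the most UMIs of the gene, Nt5e had 1.86 (0.68 to 3.05) there, from 13 and 15 UMIs. Ada then had 0.55 (0.28 to 0.82) and Slc28a2 0.43 (-0.68 to 1.45), both under 1.5-fold, while Enpp3 (-1.88) and Xdh (-0.82) stayed lower. The counts in the upper range were 1 with 5 ranges in place of 3 and 1 with no mitochondrial limit, Nt5e in both. Without cluster 3, with the ranges drawn again over the remaining cells (104 Tg and 82 FMTg in the upper one), the upper range gave log2 ratios of 1.502 for Nt5e, 0.78 for Slc28a2, 0.03 for Ada and -0.23 for Enpp3. Few Nt5e UMIs lay outside cluster 3: cluster 4 had 32 in FMTg, 81.25% of them from 5 of 95 cells.

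**Figure D2:**
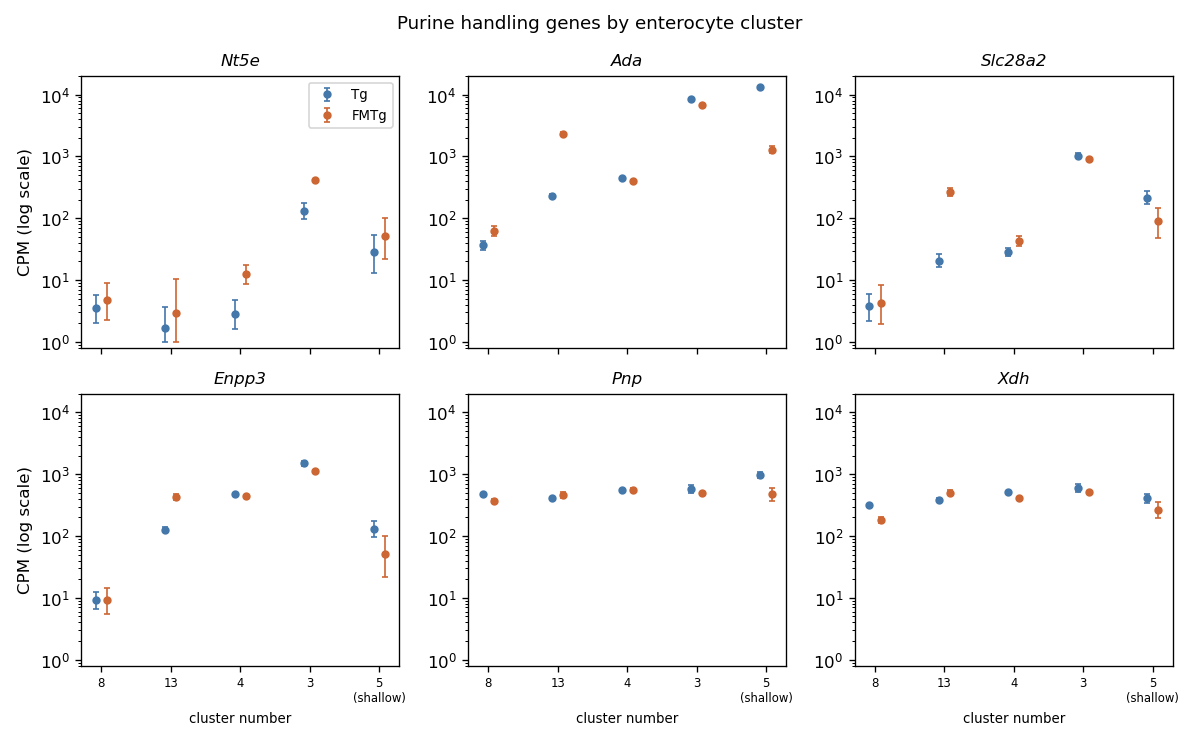
CPM on a log axis of the 6 genes in each enterocyte-like cluster and in shallow unnamed cluster 5, for Tg (blue) and FMTg (orange), with 95% counting intervals as bars, drawn from 1 CPM where the lower bound is smaller. Ada in cluster 3 stands at 8457 CPM in Tg and 6739 CPM in FMTg, while Nt5e there stands at 131 and 410.0 CPM.

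The values depended on the mitochondrial share of the barcodes, which differs between the libraries. The barcodes compared had at least 500 UMIs and 300 genes, and enterocyte markers that outnumbered those of every other cell type. Those with 10 to 25% mitochondrial UMIs (704 Tg, 641 FMTg) had Nt5e at 7.06 CPM in Tg and 182 CPM in FMTg. Those with 25 to 50% (1093 and 1949 barcodes, outside the limit) had 91.3 and 621 CPM, and those above 50% (1441 and 825 barcodes) 188 and 178 CPM. Above 50% the animals were closer, with a log2 ratio of -0.08 (-0.21 to 0.04) for Nt5e, 0.07 for Ada, -0.28 for Slc28a2 and 0.08 for Enpp3. The same ratios were 2.31, 3.06 and 1.26 at 10 to 25% for Ada, Slc28a2 and Enpp3, and 1.22, 0.94 and 0.51 at 25 to 50%. Up to 10% (115 and 27 barcodes) Ada was lower in FMTg, at 2457 CPM in Tg and 519.6 CPM in FMTg. The summed upper villus list stood at 7913 CPM in Tg and 7003 CPM in FMTg up to 10%, 26355 CPM in Tg and 48683 CPM in FMTg at 10 to 25%, 39365 and 61089 CPM at 25 to 50%, and 24375 and 27710 CPM above 50%. The part of the mitochondrial share and of the villus list in the gene differences was not tested. With no mitochondrial limit, new clusters and new ranges, the upper range (294 Tg, 928 FMTg cells, median mitochondrial shares 50.01% and 35.9%) had Nt5e at 404 and 961 CPM (log2 ratio 1.25, 1.17 to 1.33), Ada at 8623 and 10438 CPM and Slc28a2 at 1246 and 1199 CPM. In the middle range of those cells Nt5e was slightly lower in FMTg, at 92.1 and 79.0 CPM (log2 ratio -0.22, -0.38 to -0.06), and in the lower range it measured 4.29 and 11.1 CPM (1.38).

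**Figure D3:**
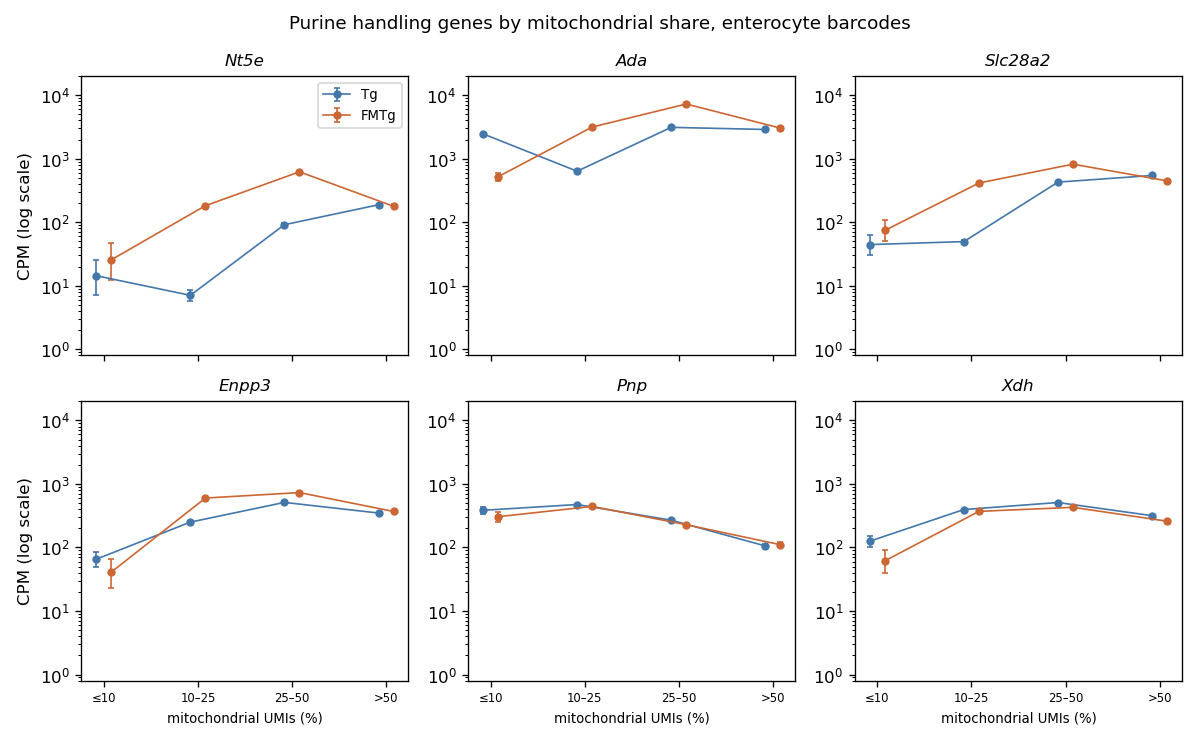
CPM on a log axis of the 6 genes by mitochondrial share of the barcode (up to 10%, 10 to 25%, 25 to 50%, above 50%) in barcodes led by enterocyte markers, for Tg (blue) and FMTg (orange), with 95% counting intervals as bars. Nt5e in FMTg stands above Tg from 10 to 50% and meets it above 50%, at 188 CPM in Tg and 178 CPM in FMTg.

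The share of enterocyte-like cells with a UMI was compared at equal depth. With each cell thinned to 2000 UMIs (3 Tg and 5 FMTg shallower cells left out), Nt5e was detected in 1.25% of Tg (0.41 to 2.90) and 20.4% of FMTg cells (16.7 to 24.5), Slc28a2 in 6.02% and 40.1%, Ada in 26.6% and 64.7%, Enpp3 in 34.6% and 58.7%, Pnp in 58.1% and 62.4%, and Xdh in 49.9% and 53.2%. Unthinned, Nt5e was found in 8.46% and 33.8% of cells at median depths of 30653 and 19976 UMIs. In B-like cells (median depths 3317 and 3142), given for comparison although B cells can carry CD73 and Ada, the thinned shares were 3.71% and 4.24% for Nt5e, 14.1% and 12.3% for Slc28a2, 42.3% and 40.2% for Ada, 6.44% and 6.25% for Enpp3, 15.1% and 13.2% for Pnp and 8.17% and 4.02% for Xdh. The Tg enterocyte shares of Nt5e, Slc28a2 and Ada lay below those of Tg B-like cells and those of Enpp3, Pnp and Xdh above them, while the FMTg shares of all 6 lay above those of FMTg B-like cells. At 5000 UMIs, 100 of 415 FMTg enterocyte-like cells had Nt5e, and of these 97 had Ada, 85 Slc28a2 and 95 Enpp3, against 67.0%, 33.0% and 65.7% of the cells without it. Pnp went the other way, with 81 of the 100 against 90.5%, and Xdh was found in 84 of the 100 against 79.7%. In Tg only 12 of 385 cells had Nt5e. Of these 7 had Ada, 8 Slc28a2 and 9 Enpp3, against 42.6%, 5.90% and 45.0% of the cells without it. All 12 had Pnp and Xdh, against 90.6% and 81.8%. The genes were chosen as Nt5e and its partners in these same files, and the cells compared span all 3 ranges of the score. Nothing is therefore read from their joint detection. The detected UMIs were unevenly held: the 10 cells with the most Nt5e carried 69.1% of it in Tg and 33.3% in FMTg, and for Ada 41.4% and 19.4%.

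Nt5e was also found outside the enterocytes. In T or NK-like cells, where CD73 is a known surface protein, it measured 158 CPM in Tg and 153 CPM in FMTg (log2 ratio -0.05, -0.18 to 0.08), from 1018 and 933 UMIs. The order in Tg was enteroendocrine-like (235 CPM), T or NK-like (158), goblet-like (23.4), B-like (16.9), neutrophil-like (16.4), macrophage or monocyte-like (8.15), enterocyte-like (6.08) and tuft-like (3.24), with 0 UMIs in plasma-like and stem-like cells. The enteroendocrine-like and T or NK-like intervals overlap, and from goblet-like downward each interval overlaps the next. In FMTg it was enteroendocrine-like (389.6 CPM), goblet-like (368), enterocyte-like (205), T or NK-like (153), B-like (23.2), plasma-like (10.4), macrophage or monocyte-like (8.88), stem-like (6.39) and tuft-like (5.32), with 0 UMIs in 7 neutrophil-like cells. The enteroendocrine-like and goblet-like intervals overlap there, and from B-like downward each interval overlaps the next. Of the 83 FMTg enteroendocrine-like UMIs, 65.1% came from 5 of 15 cells.

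Among T or NK-like clusters Nt5e measured 159.9 and 166 CPM in cluster 0 (led by Il2rb and Gzma), 189.97 and 158 in cluster 2 (Trdc and Ccl4), 134 and 129.99 in cluster 7 (Il22 and Il7r) and 204 and 237 in cluster 15 (Izumo1r and Icos). In cluster 6, led by Lef1 and Igfbp4, it was 15.5 CPM in Tg from 4 UMIs and 58.9 CPM in FMTg from 40, a log2 ratio of 1.92 (0.46 to 3.87). Across the class Ada measured 198 and 195 CPM and Slc28a2 98.4 and 69.1 CPM, with a log2 ratio of -0.51 (-0.69 to -0.33). Xdh was 35.5 CPM in Tg and 19.8 CPM in FMTg, a log2 ratio of -0.84 (-1.17 to -0.52), the only one of the 6 at least 1.5-fold apart in that class, where 8.61% of genes were lower and 5.54% higher. In B-like cells Xdh was also the only one past 1.5-fold, lower at 31.0 and 20.1 CPM from 46 and 33 UMIs (log2 interval -1.32 to 0.05), beside 11.7% of genes lower and 6.55% higher. The enterocyte markers summed to 3158 CPM in Tg and 2124 CPM in FMTg T or NK-like cells. The part of that enterocyte RNA in these values was not tested.

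Goblet-like cells (121 Tg, 44 FMTg) had Nt5e at 23.4 CPM in Tg and 368 CPM in FMTg, Ada at 515.5 and 3506 CPM, Slc28a2 at 76.2 and 338 CPM, and Enpp3 at 175 and 341 CPM. These 4 of 6 were at least 1.5-fold higher, beside 14.4% of 6390 genes higher and 19.6% lower. In the same cells the upper villus list summed to 7778 CPM in Tg and 21315 CPM in FMTg, the enterocyte markers to 9415 and 19929 CPM, and 64.7% of the FMTg Nt5e UMIs came from 5 cells. The part of enterocyte RNA in these values was not tested. In 16 Tg and 15 FMTg enteroendocrine-like cells Nt5e measured 235 and 389.6 CPM and Enpp3 39.2 and 155 CPM. Ada there measured 141 and 1338 CPM, and 199 of its 285 FMTg UMIs came from 1 cell. Slc28a2 had 0 UMIs in the 16 Tg cells and 36 UMIs in 5 FMTg cells, at least 7.19-fold higher by 3 counts set for the Tg sum. In these cells the enterocyte markers summed to 4520 CPM in Tg and 12349 CPM in FMTg and the upper villus list to 2546 and 11030 CPM, and the part of that RNA in the differences was not tested. Tuft-like cells were near equal, with Ada at 62.7 and 64.7 CPM, Enpp3 at 29.2 and 29.2 CPM and Nt5e at 3 and 6 UMIs. Pnp was highest in enterocyte-like cells and stood at 359 and 296 CPM in macrophage or monocyte-like and 225 and 153 CPM in stem-like cells. Xdh was likewise highest in enterocyte-like cells, and in stem-like cells it had 3 UMIs in Tg and 49 in FMTg.

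**Figure D4:**
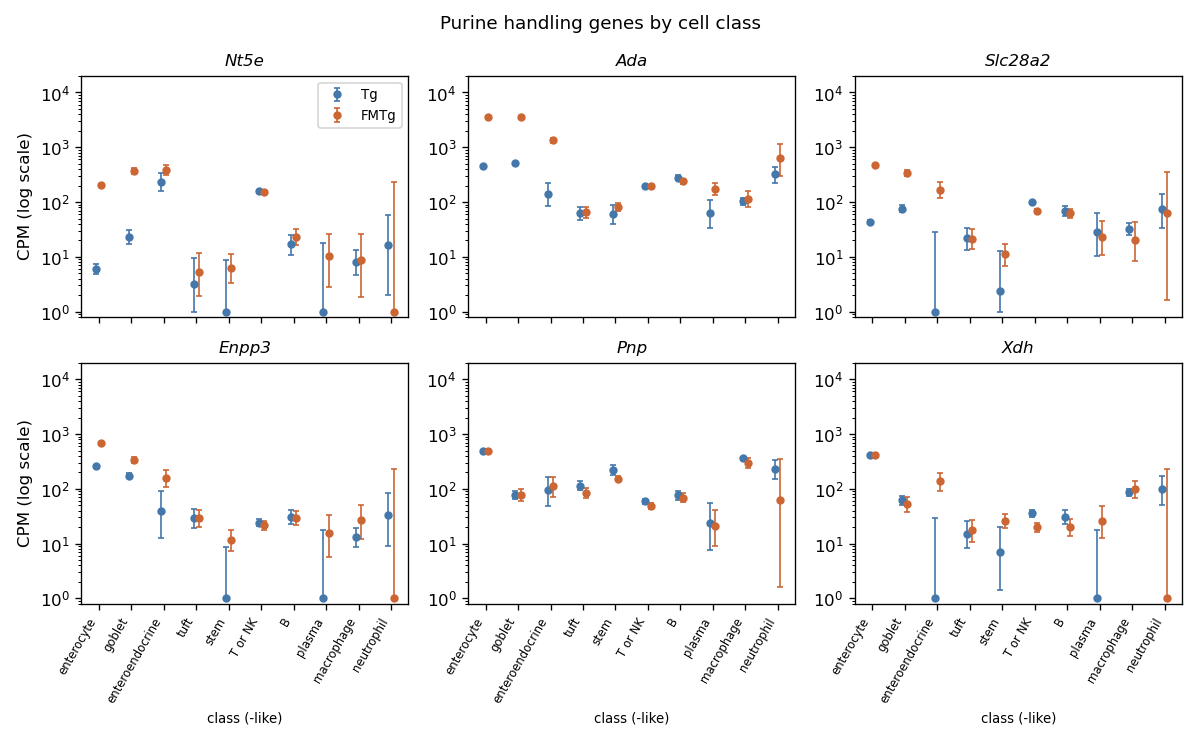
CPM on a log axis of the 6 genes in each named cell class, for Tg (blue) and FMTg (orange), with 95% counting intervals as bars, drawn at 1 CPM where the value or bound is smaller. Nt5e in T or NK-like cells stands at 158 CPM in Tg and 153 CPM in FMTg, while in enterocyte-like and goblet-like cells FMTg stands above Tg.

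Most of the other genes of the pathway passed 1.5-fold in neither direction. Of 87 genes on 8 lists, 57 had at least 20 UMIs in enterocyte-like cells, and 14 were at least 1.5-fold higher and 10 lower in FMTg, beside 16.1% and 11.6% of all genes measured in the class. With each cell given equal weight the counts were 12 higher and 15 lower. Without the 6 genes, 51 of 81 were measured, with 10 higher, 10 lower, 31 in between and a median log2 ratio of -0.06 beside 0.06 over all 10473 genes. Of 8 measured ectonucleotidases and phosphatases 3 were higher and 1 lower (median 0.40): Enpp1, which like Enpp3 cleaves nucleotides, had log2 1.10, the ectonucleotidase Entpd8 0.49 and the alkaline phosphatase Alpi 0.30. Of 4 measured transporters 1 was higher, Slc28a2, and 2 lower. Slc28a1, which prefers pyrimidine nucleosides, was counted 449 times in the Tg and 74 times in the FMTg cells, for a log2 ratio of -2.21 (-2.59 to -1.85), and in the upper range it measured 69.5 and 6.70 CPM while Slc28a2 measured 333 and 907 CPM. The equilibrative transporter Slc29a3 had -0.82 (-1.76 to 0.06) and Slc28a3 -0.17.

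Of 12 measured genes of nucleoside and base breakdown 4 were higher and 1 lower (median 0.08). The cytosolic 5′-nucleotidase Nt5c2 had 68 and 240 UMIs, a log2 ratio of 2.21 (1.82 to 2.62), and the AMP deaminase Ampd2 1.16, while Gda, the guanine deaminase, had 0.33. Of 3 urate transporters Slc17a4 was higher (0.85), and Abcg2 and Slc2a9 had 0.07 and -0.04. None of 8 measured salvage kinases and phosphoribosyltransferases, which rebuild nucleotides from nucleosides and bases, passed 1.5-fold in either direction (median -0.24). Adenosine kinase Adk had -0.46, Ak3 -0.57, the adenine phosphoribosyltransferase Aprt -0.35 and Guk1 -0.08. De novo synthesis had 3 higher and 2 lower of 9 (median 0.10), with Impdh2 at 0.90, Prps2 0.45, Adss 0.10, Gmps -0.18, Prps1 -0.65 and Adsl -0.84. Pyrimidine genes had 1 higher and 2 lower of 9 (median -0.13), with Cda at -0.11, Upp1 -0.06, Uck1 -0.13, Upp2 -0.45 and Dpyd -0.63. Of 4 measured receptors 1 was higher and 2 lower (median -0.61): P2ry2 had 1.88 from 30 and 84 UMIs, P2rx4 -0.36, P2ry1 -0.86 and the adenosine receptor Adora2b -0.98.

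Along the maturation score the breakdown list had genes in both directions: of 12 measured, 5 were at least 1.5-fold higher and 4 lower in the upper than in the lower range in each library. Each of the 4 lower in Tg had an interval that included 0. Its median log2 ratio was -0.02 in Tg and 0.41 in FMTg, beside 0.06 and 0.12 over all genes, of which 23.3% were higher and 23.3% lower in Tg and 31.5% and 27.1% in FMTg. Of 7 measured salvage genes 0 were higher, and 4 in Tg and 5 in FMTg were lower (medians -0.76 and -0.73). Of the breakdown list, Ampd2 had -1.21 in Tg (-4.33 to 0.76, 30 and 2 UMIs) and -1.34 in FMTg (-2.23 to -0.48). The nucleotidase Nt5c3 had -0.81 in Tg (-1.91 to 0.13) and -2.34 in FMTg (-3.04 to -1.69). From the lower to the upper range Gda was 1.03 (Tg) and 1.17 (FMTg) higher on the log2 scale, and on other lists Entpd8 was 1.48 and 2.12, Alpi 0.61 and 1.75 and Slc17a4 0.91 and 1.77 higher. Adk was lower by log2 ratios of -1.71 and -2.31 and Aprt by -0.76 and -0.99. Nt5c2 was 1.60 higher in Tg (0.61 to 2.53, 32 and 15 UMIs) and 4.32 higher in FMTg (3.07 to 5.96, 5 and 190 UMIs).

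The genes most like Nt5e over the sums of 10 classes in each library (20 points, Pearson correlation of log2(CPM + 10)) were Gramd1b (0.82), Fbxo32 (0.82), B3galt5 (0.80), Ralgapa2, Ncald, Parp4, Gnb5, 2900026A02Rik, Tes and Mical2. Ada stood at rank 115 with 0.64, Enpp3 at rank 164 and Slc28a2 at rank 326. Within enterocyte-like cells over 3 ranges in each library (6 points) they were Kpna4, Cldn4, Rexo4, Acsl3, Fbxo32, Arid3b, Dusp3, Arid3a, Eif2ak3 and Cep95. Ada was the gene most like Slc28a2 over the 20 points, at 0.87. The points share libraries, depth and the naming of classes, so these correlations are descriptions.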

How the data were processed

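Droplet single-cell libraries of small intestine, 1 from a Tg and 1 from an FMTg mouse, were analysed. The deposited tables hold raw UMI counts per gene symbol and barcode. CASAVA 1.8.1, Cell Ranger 3.0 and mm10 come per the submitters' processing notes; the annotation and cell calling settings are not given in the sources used here. Depth was 54013005 UMIs in Tg and 49805718 in FMTg.

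A barcode was kept with a minimum of 500 UMIs and 300 genes and a mitochondrial share no higher than 25%, and the cells with the highest scrublet scores were removed at 0.8% per 1000 barcodes (154 Tg, 144 FMTg). With scanpy 1.11.5 and leidenalg 0.10.2 (Python 3.11.15, numpy 2.4.6, scipy 1.17.1, scikit-learn 1.9.0), 2000 variable genes without the purine, p53, cell cycle, stress, interferon, ribosomal and mitochondrial genes gave 30 components, 20 neighbours and, at resolution 1, 23 clusters. Clusters were named by marker lists of 19 cell types, where 3 or more markers were detected in 10% of cells, and stayed unnamed where markers of another type led or tied, where depth was low with no marker leading, or where Ptprc exceeded Epcam in an epithelial type. The tie rule and the wider Epcam rule date from after the clusters were inspected.

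UMIs were summed per class and library and divided by the total of that sum (CPM). Intervals are exact Poisson for CPM, exact conditional binomial for ratios and exact Clopper-Pearson for shares. A sum of 0 was set to 3 counts for a fold. Genes needed 20 UMIs over both libraries, and 1.5-fold served as the size called higher or lower. The calculations were tested on simulated data. The maturation score is the mean log level, scaled by each gene's SD, of upper villus genes minus that of lower villus genes on cells thinned to 5000 UMIs, divided into 3 ranges.

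The 6 genes are named in every class, enterocyte-like cluster and range. Of each list, genes with at least 50 UMIs in enterocyte-like cells were named, namely the 3 most abundant and the 3 with the widest log2 ratio in either direction. Of these, 1 gene is not reported here. The 10 genes most like Nt5e were taken among genes with at least 200 UMIs. The genes and the lists were chosen with earlier results of these data known. Alternatives covered cell filters, doublets, scaling (TMM from edgeR 4.0.16 and size factors from DESeq2 1.42.0, R 4.3.3), weights, clustering, naming and the score. Adding the shallow cluster, weighting ranges equally, leaving out the 10 highest cells or the highest cell and using all barcodes were chosen after seeing the data.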

Additional observations from a re-analysis of the deposited data

Results flagged for a closer look

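Several log2 ratios of FMTg over Tg had opposite signs in different groups of cells, and in each case the difference was not tested, since each group is 1 library. Ada had 3.33 in cluster 13, where 5 of 29 FMTg cells held 77.9% of the FMTg UMIs, and -3.38 in shallow cluster 5, where the Tg UMIs were spread over 146 of 174 cells. Slc28a2 had 3.69 in cluster 13, from 74 and 183 UMIs, and -1.28 in cluster 5, from 69 and 14 UMIs. In cluster 13, 37 of the 74 Tg UMIs came from 1 cell, and 5 of 29 FMTg cells held 83.1% of the FMTg UMIs. Enpp3 had 1.98 in enteroendocrine-like cells, from 5 and 33 UMIs, and -1.76 in the lower range of enterocyte-like cells. Of the 33 FMTg enteroendocrine-like UMIs, 97.0% came from 5 of 15 cells. Xdh had 1.89 in stem-like cells, from 3 and 49 UMIs, and -0.84 in T or NK-like cells. Of the 49 FMTg stem-like UMIs, 67.3% came from 5 of 35 cells.

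Barcodes at 25 to 50% mitochondrial UMIs lie outside the filter and enter no class. Those led by enterocyte markers also had higher levels in FMTg than in Tg, by 2.77 for Nt5e, 1.22 for Ada and 0.94 for Slc28a2 on the log2 scale.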

How the results depend on the processing

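No paired analysis was possible because each group has 1 library. Nt5e stayed at least 1.5-fold higher in FMTg enterocyte-like cells under all 16 alternatives that gave a value (log2 1.57 to 6.13), the lowest without cluster 3. That lowest value rests on few UMIs. Cluster 4 had 32 FMTg Nt5e UMIs, of which 12 came from 1 cell and 81.25% from 5 of 95 cells. Ada (-5.23 to 3.41), Slc28a2 (-1.73 to 4.45) and Enpp3 (-2.70 to 1.53) took the opposite sign under a mitochondrial limit of 10%, which left 55 Tg and 9 FMTg cells of the class. There Ada had -5.23 from 1804 Tg and 8 FMTg UMIs, Slc28a2 -1.73 from 20 and 1, and Enpp3 -2.70 from 39 and 1. The Slc28a2 and Enpp3 values thus rest on 1 FMTg UMI each. At that limit 0 of the 6 genes were higher in the class (4 as reported), 0 over all cells (4 as reported), and 1 pathway gene was higher (14 as reported). Pnp ranged from -0.27 to 0.46 and Xdh from -0.31 to 0.03. Enpp3 was also under 1.5-fold without cluster 3 (0.24) and with equal weight per range (0.04), where 3 of the 6 genes were higher. Beside 14 higher and 10 lower pathway genes as reported, a minimum of 100 UMIs per gene left 9 and 7, with fewer genes tested, the marker gate gave 19 and 6, leaving out cluster 3 gave 11 and 5, a mitochondrial limit of 50% gave 11 and 14, and equal weight per cell gave 12 and 15. In the upper range 3 of the 6 genes were higher as reported, 1 with 5 ranges in place of 3 (13 Tg and 147 FMTg cells) and 1 with no mitochondrial limit; the cause was not tested. Scaling by totals put the median of all genes at 0.06 on the log2 scale. Leaving out clusters with a median under 3000 UMIs changed nothing to compute, since the class has no such cluster. With 1 library per group the spread between animals is unknown.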
